A study of Mus musculus with 30 samples.

Results

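The Wnt target genes described here are 10 genes that canonical Wnt signalling is known to switch on, followed across 28 samples of mouse embryonic stem (ES) cells on 30 Illumina arrays. The members were taken by name, as every probe whose gene symbol in the platform annotation is Axin2, Lef1, Tcf7, Sp5, Nkd1, Ccnd1, Cdx1, Dkk1, Rnf43 or Lgr5. The rule uses names and no measured values, but the list itself was chosen with earlier results of these data known. The annotation names 12 probes for 8 of the 10 genes, out of 24611 probes on the arrays, of which 20983 carry 1 gene symbol. Tcf7 and Nkd1 have no named probe in the annotation used here and were not analysed here. Of the 12 probes, 9 passed the filter on dim probes, those of Axin2, Sp5, Cdx1 and Rnf43, the first of 2 probes for Lef1 and all 4 probes for Ccnd1. They were tested among 12279 named probes of 9826 genes.

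All cells were of the Ainv15 line, which carries a gene at a fixed site under a doxycycline-controlled promoter, and all groups were treated for 6 hours. The 7 groups hold 4 samples each, numbered 1 to 4 in the labels. They are N2B27 medium in 1% oxygen with doxycycline at 2 µg/ml (1% O2+Dox), N2B27 in 1% oxygen with DAPT (1% O2+DAPT), N2B27 in 1% oxygen (1% O2), N2B27 with doxycycline (Dox), N2B27 with DAPT (DAPT), N2B27 alone as the control (N2B27) and serum-containing ES cell medium with LIF (ESC). DAPT, an inhibitor of the gamma-secretase that cuts and thereby activates Notch receptors, is given in the labels at 2.5 ng/ml, a low value for this inhibitor whose unit could not be checked here, and those cells had 4 hours of DAPT in ES cell medium beforehand. The labels name no transgene; from what is known of this work, the drug induces the activated, intracellular form of Notch1. No sample without the transgene received doxycycline, so an effect of the drug cannot be told apart from one of the transgene. The samples are called biological replicates, and the labels do not say whether they came from different cultures, so the p-values reflect only how far these samples scatter, some of which could be technical.

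In canonical Wnt signalling a secreted Wnt protein binds a Frizzled receptor with its co-receptor Lrp5 or Lrp6, and the complex of Axin, Apc and Gsk3 then no longer marks β-catenin for breakdown. β-Catenin enters the nucleus and binds the DNA-binding factors Tcf7, Tcf7l1, Tcf7l2 and Lef1. Many genes switched on in this way feed back on the pathway. Among the 10, Axin2 is a scaffold of the breakdown complex, Nkd1 binds Dishevelled, Dkk1 is a secreted blocker of the co-receptors, Rnf43 is a ubiquitin ligase that removes Frizzled from the surface, and Lgr5 is a receptor for R-spondins. Lef1 and Tcf7 are DNA-binding partners of β-catenin, Sp5 is a zinc finger factor that acts on Wnt target genes, Cdx1 is a caudal-type homeobox factor of the posterior embryo, and Ccnd1 is cyclin D1. In ES cells, Wnt signalling is known to favour self-renewal at low level and to accompany the entry into primitive streak fates.

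Under 1% oxygen, Lef1 rose on each of 3 backgrounds, with fitted folds of 2.23 to 2.53 that are approximate because the groups without low oxygen lay partly at background, and it was the 1 member probe of 9 to pass the test without a term for the replicate number. Sp5 and Axin2 were higher under 1% oxygen in all 4 pairs of same-numbered samples in N2B27, and passed with the replicate number as a block. Of all probes, 3.31% passed in 1% O2 against N2B27 without that block and 17.2% with it. With doxycycline, Lef1 and Sp5 were lower in 4 of 4 pairs at both oxygen levels, and Cdx1 was higher in 4 of 4 pairs at both. In Dox against N2B27, however, Lef1 and Sp5 passed in neither fit, and Cdx1 passed only with the block. Lef1 was above background in 2 of 4 N2B27 samples and 1 of 4 Dox samples. None of the 4 probes of Ccnd1 passed in N2B27 under either treatment. Lef1, Sp5 and Axin2 were thus further apart between 1% O2 and Dox than between either of these and N2B27.

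The 250 bases before annotated start sites of Sp5, Axin2 and Lef1 are shown because these 3 genes varied together across the samples. The sequences are those of RefSeq for GRCm38.p6, on the genes' own + strand, 5′ to 3′, with capitals for 7-base words that TCF and LEF factors are known to bind, on either strand. The words are CTTTGAA together with its variants CTTTGAT, further CTTTGTA, and lastly CTTTGTT.
Sp5, chr2:70474673-70474922: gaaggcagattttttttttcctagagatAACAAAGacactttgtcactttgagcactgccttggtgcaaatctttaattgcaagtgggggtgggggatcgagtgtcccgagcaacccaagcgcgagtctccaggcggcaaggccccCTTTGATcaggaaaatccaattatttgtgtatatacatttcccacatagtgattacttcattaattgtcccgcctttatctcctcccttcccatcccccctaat
Axin2, start site within the gene, chr11:108920099-108920348: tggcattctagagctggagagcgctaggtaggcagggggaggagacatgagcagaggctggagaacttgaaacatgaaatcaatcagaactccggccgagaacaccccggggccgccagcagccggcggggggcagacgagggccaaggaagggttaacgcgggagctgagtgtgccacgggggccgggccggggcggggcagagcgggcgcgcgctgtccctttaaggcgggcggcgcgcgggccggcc
Lef1, first start site, chr3:131110047-131110296: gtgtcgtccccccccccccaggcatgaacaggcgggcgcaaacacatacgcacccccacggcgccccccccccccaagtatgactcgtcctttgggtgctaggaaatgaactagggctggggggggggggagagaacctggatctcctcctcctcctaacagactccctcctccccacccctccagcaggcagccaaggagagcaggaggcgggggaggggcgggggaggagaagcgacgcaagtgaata
Lef1, start site within the gene, chr3:131156044-131156293: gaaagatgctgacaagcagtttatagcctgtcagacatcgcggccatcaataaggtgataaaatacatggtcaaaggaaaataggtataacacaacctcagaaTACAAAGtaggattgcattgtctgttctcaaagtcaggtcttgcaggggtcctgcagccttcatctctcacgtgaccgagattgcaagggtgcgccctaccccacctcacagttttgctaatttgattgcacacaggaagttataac

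Such a word occurs in 14.8% of the 32851 windows of the same length in the table of promoters. It occurs in 3 of 12 windows of the 7 members whose promoters were used here. Cdx1, on chromosome 18, was left out of this count. Sp5 has 2 matches, beginning 222 and 104 bases before its start site, the first of them on the other strand. Lef1 has 1 match, 147 bases before a start site that lies within the annotated gene, and none before its first start site. Dkk1 has 2 matches, at 117 and 98 bases before its start site. The window of Axin2 holds none of these words. The word GTGGGAA, bound by the Notch partner RBPJ, occurs in 5.42% of windows and in 1 of the members' 12, that of Sp5, 66 bases before the start on the other strand. The core words ACGTG and GCGTG, bound by hypoxia-inducible factors, occur in 38.6% of windows and in 3 of the 12. In the inner Lef1 window, 2 of these matches overlap as the 2 strands of 1 site, 79 and 78 bases before the start. A match is a description of the letters and not evidence of binding.

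Doxycycline and 1% oxygen were visible in their known targets, and DAPT was not. With doxycycline in N2B27, the Notch targets Nrarp, Hes5, Hey1 and Hes1 all rose, by 3.45, 2.93, 1.67 and 0.72 on the log2 scale. Under 1% oxygen the hypoxia targets Adm, Egln3, Ndrg1 and Vegfa all rose, by 4.60, 3.90, 3.86 and 1.55. In DAPT against N2B27 none of the 4 Notch targets was called in either fit, with changes of -0.16 for Nrarp, 0.19 for Hes5, -0.21 for Hey1 and -0.03 for Hes1. Hey1 rose under 1% oxygen as well, by 0.76 (limma adjusted p = 0.0486). All 8 ES cell markers checked, among them Pou5f1, Nanog, Sox2 and Esrrb, were above background in all 28 samples. The mean signal per array lay between 645 and 862, and 47.7% to 49.9% of probes were above each array's background limit. Replicates 1 and 2 stood apart from replicates 3 and 4 across the whole array in every group, and the labels do not say why. For that reason each change is also given with the replicate number as a block, which compares samples of the same number, and for the genes the results turn on within each of the 2 sets.

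Levels are normalised signals on the log2 scale and apply to 1 probe each, so levels of different probes are not compared. Changes are log2 fold changes with the standard error of the limma model (SE), and the adjusted p is limma's, after Benjamini-Hochberg adjustment over all 12279 probes. A change is called where the adjusted p is under 0.05. The test without the block treats the 28 samples as independent, and the value with the block follows where it differs in the call. RNA was taken from whole cultures, so more RNA per cell and more cells that express a gene cannot be told apart.

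Lef1 had 1 probe in reach of the test, above background in 21 of 28 samples. Its levels were 7.86, 7.65, 7.19 and 7.64 in the 4 samples of 1% O2, against 6.67, 6.60, 5.78 and 5.94 in those of N2B27. The lowest sample of 1% O2 lay above the highest of N2B27, and 2 of the 4 N2B27 samples were not above background. The change was 1.34 ± 0.23 (SE, n = 4 each, adjusted p = 0.000548, limma), a 2.53-fold increase that appeared in 4 of 4 pairs. With doxycycline on both sides, Lef1 read 7.43, 7.02, 6.83 and 7.07 in 1% O2+Dox, against 6.30, 6.07, 5.58 and 5.70 in Dox. Again the groups did not overlap, and only 1 of the 4 Dox samples was above background. This change was 1.17 ± 0.23, 2.26-fold, with a limma adjusted p of 0.00249.

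With DAPT on both sides, Lef1 read 7.83, 7.73, 7.26 and 7.62 in 1% O2+DAPT, against 6.96, 6.49, 6.06 and 6.31 in DAPT, and the change was 1.15 ± 0.23 (adjusted p = 0.0031, limma). The 3 low oxygen effects on Lef1 use different samples and averaged 1.22 ± 0.13 (adjusted p = 2.34e-07, limma). That average was 1.07 in replicates 1 and 2 alone and 1.37 in replicates 3 and 4 alone, with limma adjusted p = 5.14e-05 and 1.65e-05. Omission of any 1 sample kept all 3 calls and the average. Among all probes tested, 3.31% were called in 1% O2 against N2B27, 3.26% in 1% O2+Dox against Dox, 3.18% in 1% O2+DAPT against DAPT, and 15.1% for the average.

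With doxycycline, the level of Lef1 was lower in every pair, and the differences were smaller in size than those seen with 1% oxygen. The differences between same-numbered samples of Dox and N2B27 were -0.37, -0.53, -0.20 and -0.24, and those between 1% O2+Dox and 1% O2 were -0.44, -0.62, -0.36 and -0.56. All 8 differences were below 0, while Dox and N2B27, and likewise 1% O2+Dox and 1% O2, overlapped. In replicates 3 and 4, neither the Dox nor the N2B27 sample was above background, so their differences compare signals at background. All samples of 1% O2+Dox and 1% O2 were above it. In N2B27 the change was -0.33 ± 0.23 (adjusted p = 1.00, and 0.0689 with the block, limma), which passed in neither fit. In 1% oxygen it was -0.50 ± 0.23 (adjusted p = 1.00, and 0.00274 with the block, limma). Averaged over both oxygen levels it was -0.42 ± 0.16 (adjusted p = 0.844, and 0.000156 with the block, limma). The average lay at -0.49 in replicates 1 and 2 and at -0.34 in replicates 3 and 4. In order of group means, Lef1 stood at 7.61 in 1% O2+DAPT, 7.58 in 1% O2, 7.09 in 1% O2+Dox, 6.46 in DAPT, 6.43 in ESC, 6.25 in N2B27 and 5.91 in Dox. The first 2 of these differed by 0.03, within the spread of either group. DAPT and N2B27 differed by 0.21, which passed in neither fit (adjusted p = 0.796 with the block, limma).

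**Figure D1:**
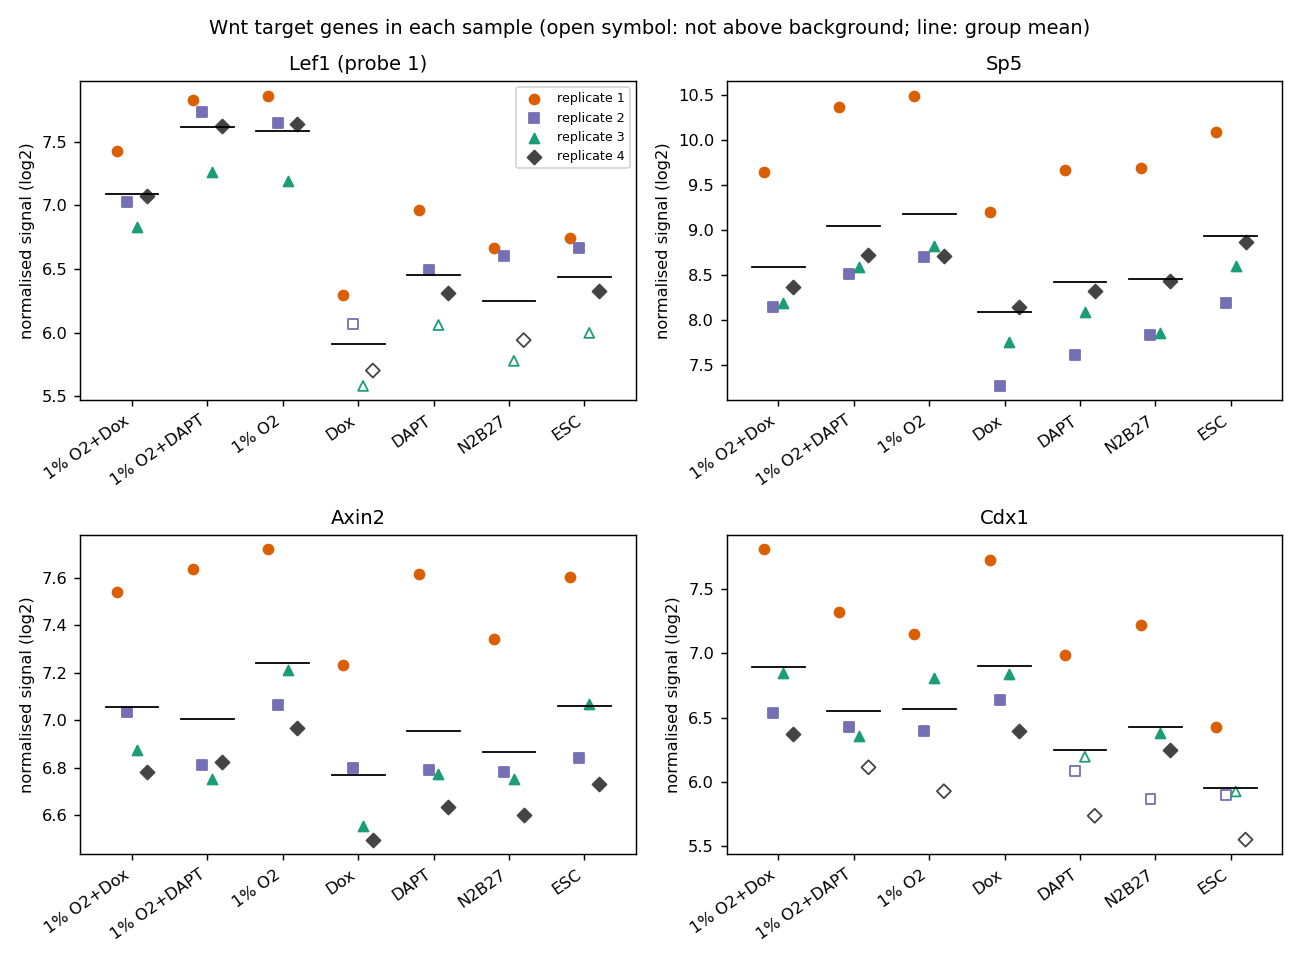
Normalised log2 signal of Lef1 (probe 1), Sp5, Axin2 and Cdx1 in each of the 28 samples, by group, with symbols for the replicate number, open where the probe was not above background, and a line at the mean of 4. The 12 low oxygen samples of Lef1 lie between 6.83 and 7.86, and replicate 1 is the highest sample of every group for Sp5 and Axin2.

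Sp5 was above background in 28 of 28 samples, and replicate 1 stood apart in every group. Sp5 read 10.50, 8.70, 8.82 and 8.71 in 1% O2, against 9.69, 7.83, 7.86 and 8.44 in N2B27. Each sample of 1% O2 was above the N2B27 sample of its own number, while the groups overlapped because replicate 1 of N2B27 exceeded replicates 2 to 4 of 1% O2. The pair differences were 0.81, 0.86, 0.96 and 0.27. The change was 0.73 ± 0.56, 1.65-fold (adjusted p = 0.791, limma), and with the block 0.73 ± 0.11 (adjusted p = 4.28e-05, limma). It was 0.83 in replicates 1 and 2 alone and 0.62 in replicates 3 and 4 alone (adjusted p = 0.818 and 0.206, limma).

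The low oxygen effect on Sp5 had the same direction on the other 2 backgrounds. Levels were 9.65, 8.14, 8.19 and 8.37 in 1% O2+Dox, against 9.20, 7.27, 7.76 and 8.14 in Dox, a change of 0.49 ± 0.11 with the block (adjusted p = 0.00248, limma). They were 10.37, 8.52, 8.59 and 8.72 in 1% O2+DAPT, against 9.67, 7.62, 8.09 and 8.33 in DAPT, a change of 0.62 ± 0.11 with the block (adjusted p = 0.000261, limma). All 12 low oxygen differences of Sp5 were above 0. Without the block neither passed, with limma adjusted p = 0.975 and 0.847. The average of the 3 effects was 0.61 (adjusted p = 0.254, and 4.78e-08 with the block, limma).

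With doxycycline, Sp5 was lower in every pair. The differences between Dox and N2B27 were -0.49, -0.57, -0.10 and -0.30, and those between 1% O2+Dox and 1% O2 were -0.85, -0.55, -0.63 and -0.34, all 8 below 0. In N2B27 the change of -0.36 passed in neither fit (adjusted p = 0.141 with the block, limma). In 1% oxygen the change of -0.59 passed with the block (adjusted p = 0.00334, limma) but not without it (adjusted p = 1.00). The average over both oxygen levels was -0.48 (adjusted p = 1.00, and 0.000312 with the block, limma). Its group means ran from 9.18 in 1% O2 through 9.05 in 1% O2+DAPT, 8.94 in ESC, 8.59 in 1% O2+Dox, 8.46 in N2B27 and 8.43 in DAPT to 8.09 in Dox. The SD of each group, between 0.71 and 0.88, exceeded each step between neighbours in this order, and replicate 1 was the highest sample of each group.

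Axin2 was above background in 28 of 28 samples and moved less. Axin2 read 7.72, 7.07, 7.21 and 6.97 in 1% O2, against 7.34, 6.78, 6.75 and 6.60 in N2B27. As for Sp5, replicate 1 was the highest of its group in both conditions and the groups overlapped. The pair differences were close to each other, at 0.38, 0.29, 0.46 and 0.37. The change was 0.37 ± 0.25, 1.3-fold (adjusted p = 0.708, limma), and with the block 0.37 ± 0.07 (adjusted p = 0.000618, limma). It was 0.33 in replicates 1 and 2 and 0.42 in replicates 3 and 4 (adjusted p = 0.798 and 0.219, limma).

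In 1% O2+Dox Axin2 read 7.54, 7.03, 6.88 and 6.78, against 7.23, 6.80, 6.56 and 6.50 in Dox, higher in 4 of 4 pairs by 0.29 ± 0.07 with the block (adjusted p = 0.00638, limma). In 1% O2+DAPT it read 7.64, 6.81, 6.75 and 6.82, against 7.62, 6.79, 6.78 and 6.64 in DAPT, a change of 0.05 that did not pass (95% interval with the block -0.09 to 0.20, adjusted p = 0.671, limma). The low oxygen effect on Axin2 was lower with DAPT than without it in 4 of 4 pairs, by 0.32. This difference was added after the values were seen. It did not pass in limma's test over all probes (adjusted p = 1.00, and 0.939 with the block), and no probe on the arrays passed it in either fit. With doxycycline Axin2 differed by -0.10 in N2B27 and by -0.18 in 1% oxygen, averaging -0.14, and passed in neither fit (95% interval with the block -0.24 to -0.04, adjusted p = 0.187, limma). Axin2 had its highest group mean in 1% O2, 7.24, followed by 7.06 in ESC, 7.06 in 1% O2+Dox, 7.01 in 1% O2+DAPT, 6.95 in DAPT, 6.87 in N2B27 and 6.77 in Dox.

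Cdx1 was dim, above background in 19 of 28 samples and was higher with doxycycline. It read 7.73, 6.64, 6.84 and 6.40 in Dox, against 7.22, 5.87, 6.38 and 6.25 in N2B27. Each Dox sample was above the N2B27 sample of its number, by 0.50, 0.77, 0.46 and 0.15, though the groups overlapped. The change was 0.47 ± 0.36 (adjusted p = 1.00, and 0.0381 with the block, limma). The call with the block rested on single samples. It was kept in 1 of 8 fits that each left out 1 sample, and the adjusted p rose to 0.226 without N2B27 replicate 2. In 1% oxygen Cdx1 read 7.81, 6.53, 6.85 and 6.37 in 1% O2+Dox, against 7.15, 6.40, 6.81 and 5.93 in 1% O2, a change of 0.32 that passed in neither fit (adjusted p = 0.299 with the block, limma). The average over both oxygen levels was 0.40 (adjusted p = 1.00, and 0.00476 with the block, limma), and that call with the block was kept in all 16 fits that left out 1 sample.

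For 1% oxygen, Cdx1 differed from N2B27 by 0.14, higher in 2 of 4 pairs, and the 95% interval with the block was -0.10 to 0.38. The effect of 1% oxygen with doxycycline on both sides was -0.01, and with DAPT on both sides 0.30, neither of which passed in either fit. Cdx1 was lowest in ESC, at 6.43, 5.90, 5.93 and 5.55, where 1 of 4 samples was above background.

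Ccnd1, which encodes the cyclin that drives entry into the cell cycle with Cdk4 and Cdk6, was above background in 28 of 28 samples on all 4 probes. On its brightest probe it averaged 12.44 ± 0.22 in 1% O2, 12.30 ± 0.24 in Dox and 12.30 ± 0.26 in N2B27 (SD, n = 4 each). The changes in 1% O2 against N2B27 were 0.14, -0.03, 0.00 and 0.05 on probes 1 to 4. None passed in either fit, and the 95% intervals with the block lay within -0.17 and 0.24. In Dox against N2B27 the 4 changes were 0.01, -0.04, 0.06 and 0.03, with intervals within -0.18 and 0.23.

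Averaged over 3 backgrounds, probe 1 of Ccnd1 was higher under 1% oxygen by 0.10 ± 0.03, 1.07-fold, which passed with the block (adjusted p = 0.0097, limma) and not without it (adjusted p = 0.63). The other 3 probes lay at -0.04, -0.05 and -0.04, opposite in sign, and passed in neither fit. With the block under median scaling instead of quantile normalization, probe 1 was no longer called and probes 2 and 4 were called lower, so the direction for Ccnd1 depends on the probe and the scaling. The probes of Ccnd1 also differed in how they read the replicate sets. Probe 3 averaged 10.27 over replicates 1 and 2 of all groups and 9.16 over replicates 3 and 4, while probe 4 averaged 9.08 and 9.19. One gene thus gave a difference of 1.11 between the sets on 1 probe and −0.11 on another.

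Rnf43 was above background in 4 of 28 samples, and its changes were -0.03 in 1% O2 against N2B27 and 0.07 in Dox against N2B27, with 95% intervals with the block of -0.39 to 0.32 and -0.28 to 0.43. Near background such values understate a change. Dkk1, Lgr5 and the second probe of Lef1 were not above background in any of the 28 samples and were not tested. Their levels ranged from 5.02 to 6.20 for Dkk1, from 3.92 to 5.67 for Lgr5 and from 3.35 to 5.94 for the second Lef1 probe. The rise of Lef1 under 1% oxygen therefore rests on 1 of its 2 probes.

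**Figure D2:**
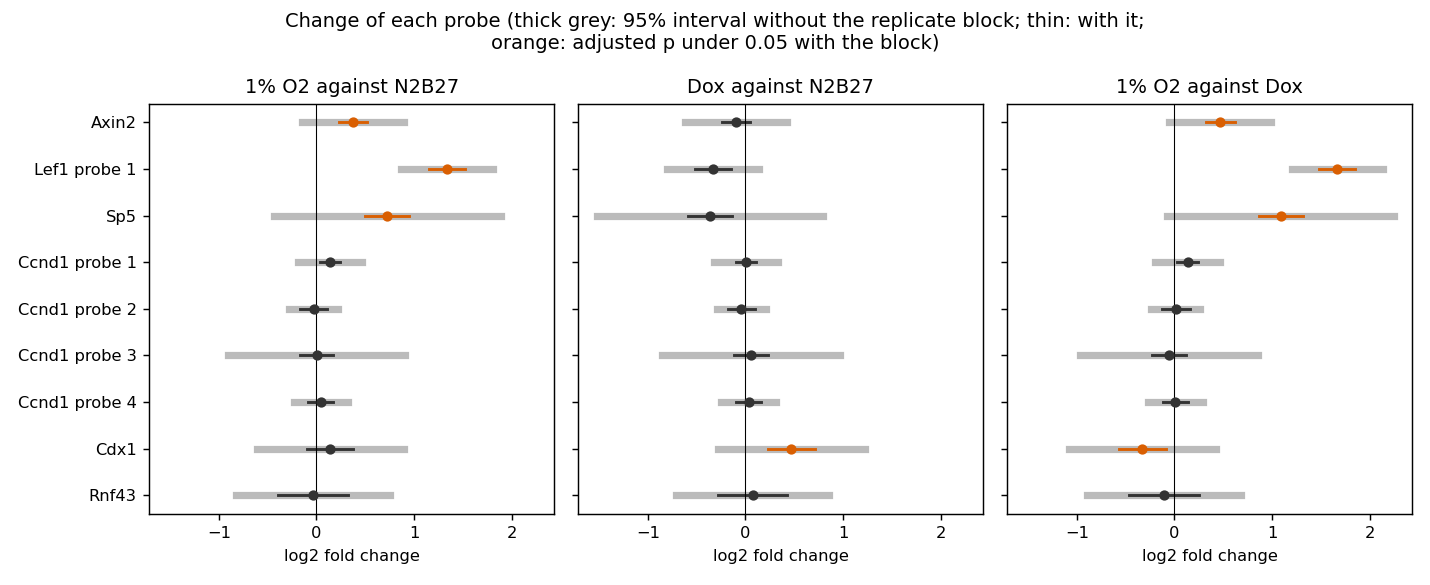
Log2 fold change of the 9 tested probes in 1% O2 against N2B27, in Dox against N2B27 and in 1% O2 against Dox, with the 95% interval without the replicate block as a thick grey bar and with it as a thin line, orange where the adjusted p with the block is under 0.05. For Sp5 in 1% O2 against N2B27 the SE is 0.56 without the block and 0.11 with it, and among the 9 probes Lef1 alone has both intervals clear of 0 in the 2 comparisons that involve 1% O2.

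Over the 9 tested probes, 1% O2 against N2B27 called 1 without the block, Lef1, and 3 with it, Lef1, Sp5 and Axin2, all higher. The share of all probes was 3.31% without the block and 17.2% with it, 8.11% being called higher. The median change of the 9 was 0.14, against −0.02 over all probes. Dox against N2B27 called 0 without the block and 1 with it, Cdx1, against 0.195% and 1.39% of all probes. At an unadjusted p under 0.05 without the block it held 0 of the 9 probes and 247 of all probes, and the median of the 9 was 0.01.

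The direct comparison of 1% O2 with Dox is also the test of whether their effects differ, since both are set against the same N2B27 samples and these cancel. Lef1 was 3.18-fold higher in 1% O2 than in Dox, a difference of 1.67 ± 0.23 (adjusted p = 2.17e-05, limma), and the groups did not overlap. Lef1 was above background in 4 of 4 samples of 1% O2 and in 1 of 4 of Dox, so this fold is approximate. Sp5 was 2.13-fold higher in 1% O2, at 1.09, in 4 of 4 pairs (adjusted p = 0.44, and 9.2e-08 with the block, limma). Axin2 was higher by 0.47, also in 4 of 4 pairs (adjusted p = 0.477, and 3.55e-05 with the block, limma). Cdx1 was lower in 1% O2 than in Dox by 0.33 in 4 of 4 pairs, and passed narrowly with the block (adjusted p = 0.0469, limma), which was kept in 1 of 8 fits that left out 1 sample, with an adjusted p of up to 0.165 without 1% O2 replicate 4. In all, 1 of the 9 probes was called without the block and 4 with it, against 4.12% and 19.3% of all probes. Of the 4, 3 were higher in 1% O2, as were 9.3% of all probes.

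**Figure D3:**
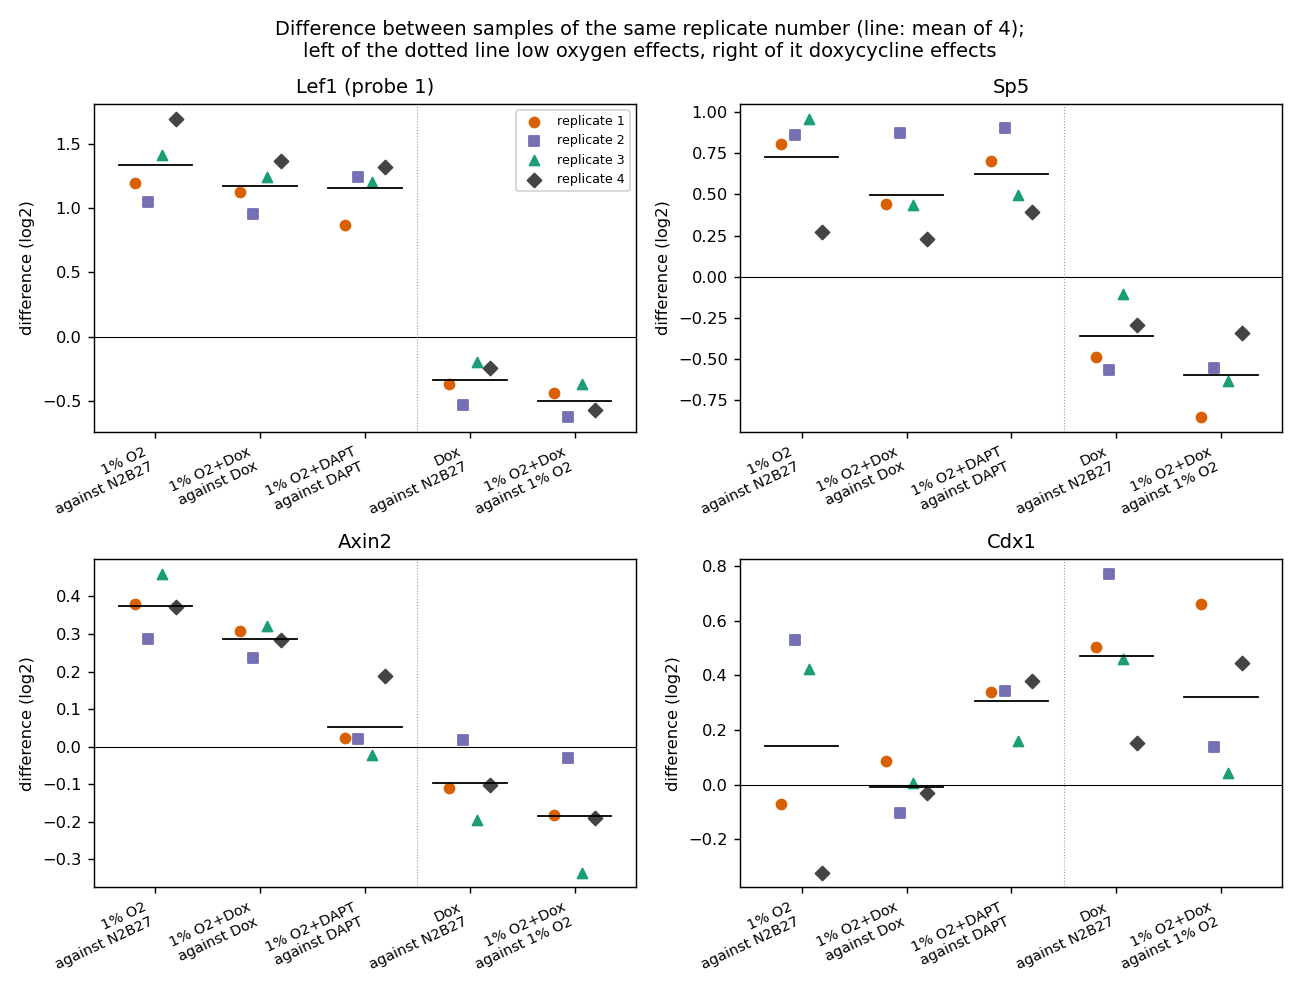
Log2 difference between samples of the same replicate number for Lef1 (probe 1), Sp5, Axin2 and Cdx1, with a line at the mean of 4, in 3 low oxygen comparisons left of the dotted line and 2 doxycycline comparisons right of it. Lef1 and Sp5 have 12 of 12 low oxygen differences above 0 and 8 of 8 doxycycline differences below 0, and Cdx1 has 8 of 8 doxycycline differences above 0. For Lef1, replicates 3 and 4 of both Dox and N2B27 were not above background.

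Where both treatments were combined, the levels of Lef1, Sp5 and Axin2 lay between those of either treatment alone. In 1% O2+Dox, Lef1 averaged 7.09 ± 0.25, against 7.58 ± 0.28 in 1% O2 and 5.91 ± 0.33 in Dox (SD, n = 4 each). Sp5 averaged 8.59 ± 0.71 in 1% O2+Dox, against 9.18 ± 0.88 in 1% O2 and 8.09 ± 0.82 in Dox. In 1% O2+Dox against 1% O2, 0 of the 9 probes were called without the block and 2 with it, Lef1 and Sp5, both lower. Of all probes, 0.155% were called without the block and 1.1% with it, 0.538% as lower. In 1% O2+Dox against Dox, 3 were called with the block, Lef1, Sp5 and Axin2, all higher, against 17.1% of all probes and 8.1% as higher.

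The interaction of 1% oxygen and doxycycline asks whether the 2 effects add up on the log2 scale. It was -0.16 for Lef1, -0.23 for Sp5, -0.09 for Axin2 and -0.15 for Cdx1. None of the 9 probes passed, 0% of all probes did without the block and 0.0163% with it. The intervals with the block, -0.42 to 0.10 for Lef1 and -0.55 to 0.09 for Sp5, leave room for an interaction about as large as the doxycycline effect itself. Averaged over the backgrounds, 1% oxygen called 4 of 9 probes with the block, all higher, against 38.2% of all probes and 15.6% as higher. Doxycycline averaged over both oxygen levels called 0 of 9 without the block and 3 with it, Lef1 and Sp5 lower and Cdx1 higher, against 0.464% and 2.95% of all probes, 1.48% as lower.

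DAPT was used to block the cells' own Notch signalling, but 0 of the 4 Notch targets checked was called in DAPT against N2B27 or in 1% O2+DAPT against 1% O2 in either fit, so these samples do not show that Notch signalling was reduced. In DAPT against N2B27, 0 of the 9 probes and 0% of all probes were called in either limma fit, and at an unadjusted p under 0.05 without the block 0 of the 9 and 101 of all 12279 were. The changes were 0.21 for Lef1, -0.03 for Sp5, 0.09 for Axin2 and -0.18 for Cdx1. With 1% oxygen on both sides, 1% O2+DAPT against 1% O2 again called 0 of 9 and 0% of all, 122 of all probes and 0 of the 9 being under an unadjusted p of 0.05 without the block. Axin2 was lower in 1% O2+DAPT than in 1% O2 in 4 of 4 pairs, by 0.08, 0.25, 0.46 and 0.14, which did not pass (adjusted p = 0.54 with the block, limma). In 1% O2+DAPT against DAPT, 2 of the 9 were called with the block, Lef1 and Sp5, both higher, against 18.4% of all probes and 8.13% as higher.

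The change of medium was read in N2B27 against ESC, whose media differ in serum and LIF. In N2B27 against ESC, 0 of 9 probes were called without the block, with 0 of the 9 and 1213 of all probes at an unadjusted p under 0.05, and 4 with it, against 1.36% and 14% of all probes. Sp5 was lower in N2B27 in 4 of 4 pairs, by 0.48 ± 0.11 with the block (adjusted p = 0.00366, limma). Cdx1 was higher in N2B27 in 3 of 4 pairs, by 0.48 ± 0.12 with the block (adjusted p = 0.0063, limma). Both of these calls were kept in all 8 fits that left out 1 sample. The other 2 calls were for Ccnd1 and had opposite signs, 0.16 on probe 1 and -0.20 on probe 4, each kept in 2 of 8 such fits, so no direction holds for the gene. Lef1 and Axin2 were lower in N2B27 by 0.19 and 0.19, in 4 of 4 pairs each, and passed in neither fit. The 1% O2 samples of Sp5 and Axin2, transferred to the same N2B27 medium, had higher means than in ESC, at 9.18 and 7.24 in 1% O2, against 8.94 and 7.06 in ESC. That comparison was not tested.

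Lef1, Sp5 and Axin2 varied together across the samples. After the mean of each replicate number was subtracted, Pearson's r over the 28 samples was 0.72 between Axin2 and Sp5, 0.68 between Axin2 and Lef1 and 0.74 between Lef1 and Sp5. Cdx1 had r = 0.10 with Lef1, −0.29 with Sp5 and −0.18 with Axin2. Probe 1 of Ccnd1 had r = 0.61 with Lef1 and 0.54 with Cdx1, but 0.22 with Axin2 and 0.07 with Sp5. The 4 probes of Ccnd1 had r between −0.31 and 0.55 with each other. These values describe 28 samples that share 7 treatments and arrays, and genes on 1 array are not independent. Without the subtraction, r between Axin2 and Sp5 was 0.87 and that between Axin2 and Ccnd1 probe 1 was 0.80, and all 3 probes had their highest mean in replicate 1.

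**Figure D4:**
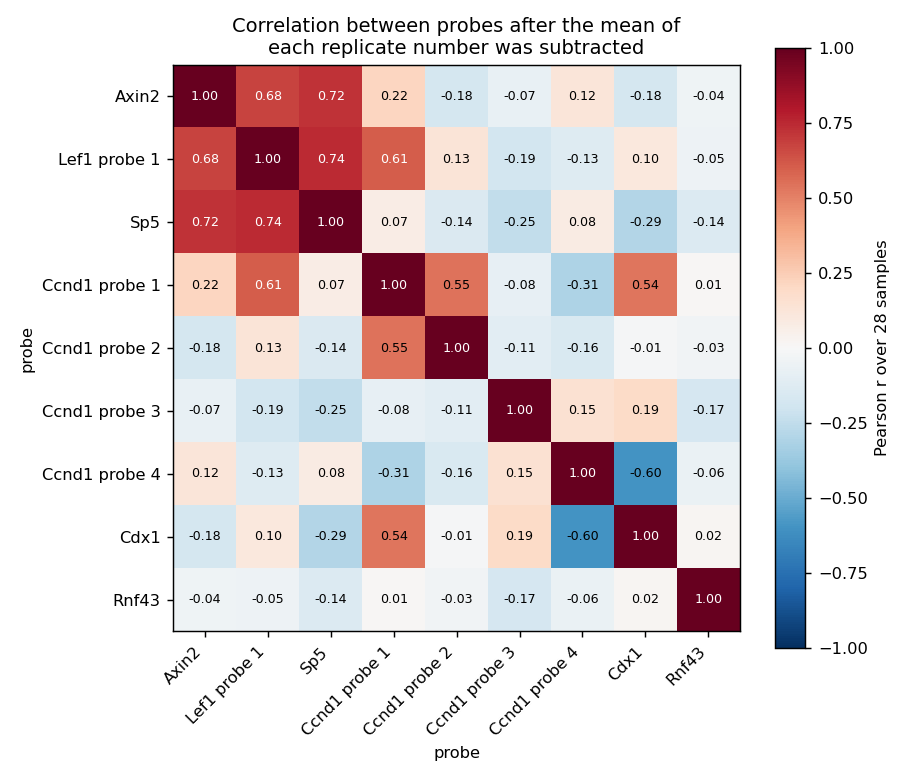
Pearson's r between the 9 tested probes over 28 samples, after the mean of each replicate number was subtracted from every probe, from −1 (blue) to 1 (red). Axin2, Lef1 probe 1 and Sp5 form a block with r from 0.68 to 0.74, and probe 4 of Ccnd1 runs against Cdx1 at −0.60.

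Axin2 is widely used as a readout of Wnt signalling, so its nearest neighbours on the arrays were also listed. Of 9825 other genes, the 5 with the highest r with Axin2 were Tmem229a (0.82), Bves (0.78), Arid2 (0.76), Slc20a2 (0.74) and Sav1 (0.74). Sp5 was in 14th place and Lef1 in 48th. Arid2 encodes a subunit of a chromatin remodelling complex, Slc20a2 a phosphate transporter, and Sav1 an adaptor of the Hippo pathway. In 1% O2 against N2B27, their changes were 0.73 for Tmem229a, 0.24 for Bves, 0.27 for Arid2, 0.26 for Slc20a2 and 0.43 for Sav1. With the block, limma's adjusted p was 0.00073 for Tmem229a, 0.12 for Bves, 0.00224 for Arid2, 0.0129 for Slc20a2 and 1.57e-06 for Sav1, so Bves was not called.

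The rest of the Wnt pathway was followed in 6 lists by role with 98 genes, of which 89 had a named probe and 66 could be tested, at 1 probe a gene. In 1% O2 against N2B27, 2 of the 66 rose and 0 fell without the block, and 14 were higher and 3 lower with it, where 3.31% of all probes were called without it, 17.2% with it and 8.11% as higher. In Dox against N2B27, 0 were called without the block, and with it 0 were higher and 2 lower, against 0.195% and 1.39% of all probes. In 1% O2 against Dox, 3 were higher and 0 lower without the block, and 14 and 4 with it, against 4.12% and 19.3% of all probes. For 1% oxygen averaged over the backgrounds, 6 were higher and 1 lower without the block, and 19 and 12 with it, against 15.1% and 38.2% of all probes. Without the block the calls were a smaller share of the 66 than of all probes, except in 1% O2 against Dox, where the share was slightly larger. With the block they were a larger share of the 66 in each of these comparisons. Whether the shares differ was not tested, and the lists were chosen with earlier results of these data known. The counts by role are to be read against 15.1% and 38.2% as well. The median change of the 66 was 0.06 in 1% O2 against N2B27 and 0.01 in Dox against N2B27.

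Among the ligands, R-spondins and the genes that export them, 13 of 25 could be tested, and the clearest change was in Porcn, the acyltransferase that attaches the lipid Wnt proteins need for secretion. Porcn rose in 1% O2 against N2B27 by 0.71 ± 0.15 (adjusted p = 0.0063, limma), to a mean of 9.27 in 1% O2 against 8.56 in N2B27. Wnt8a, a ligand of the primitive streak, was lower with doxycycline in 4 of 4 pairs, by 0.58 ± 0.13 in N2B27 with the block (adjusted p = 0.0162, limma), and by 0.69 averaged over both oxygen levels (adjusted p = 2.62e-05 with the block, limma), and was called in neither without it. In N2B27 against ESC, Wnt8a was higher by 1.32 (adjusted p = 3.03e-07 with the block, limma), and Wnt6 fell by 0.97 (adjusted p = 0.00397, limma).

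Among the receptors, Fzd7, the Frizzled most linked to ES cells, averaged 10.06 in 1% O2 and 9.57 in N2B27, and rose under 1% oxygen averaged over the backgrounds by 0.43 ± 0.13 (adjusted p = 0.0207, limma). Fzd1 rose in that average by 0.96 ± 0.19 (adjusted p = 0.000753, limma). Fzd1 was above background in 3 of 4 samples of 1% O2 and in none of N2B27 or Dox. With levels of the dim group below the background limit raised to it, the mean in 1% O2 was 1.28-fold that of N2B27. Against Dox it was 1.26-fold. All 4 1% O2 samples entered this mean, also the sample not above background, so these folds are not strict lower bounds. Of 10 receptors tested, 2 were higher and 0 lower in the average without the block, and 2 and 1 with it.

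Among the secreted and membrane inhibitors, Sfrp1, which binds Wnt proteins, was higher under 1% oxygen averaged over the backgrounds by 0.35 ± 0.06 (adjusted p = 0.000428, limma), and Apcdd1, a membrane inhibitor, by 0.57 ± 0.08 with the block (adjusted p = 4.2e-06, limma). Of 8 tested, 1 was higher and 0 lower without the block, and 3 and 1 with it. In the nucleus, Pygo1, a co-activator that joins β-catenin through Bcl9, rose in 1% O2 against N2B27 by 0.59 ± 0.10 (adjusted p = 0.00078, limma). Bcl9 itself fell by 0.19 in the average (adjusted p = 0.0222, limma), and with the block 5 of 9 nuclear genes were lower and 2 higher, where 38.2% of all probes were called. Among cytoplasmic genes, 0 of 13 were called without the block and 3 were higher and 2 lower with it, near the share of 38.2% over all probes. Among the 3 higher was the β-catenin gene Ctnnb1, at 0.14 ± 0.03 (adjusted p = 0.00165 with the block, limma) on the brighter of 2 probes and −0.04 on the other.

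Of 13 other Wnt targets tested, 1 was higher without the block under 1% oxygen averaged over the backgrounds, Ascl2, by 0.58 ± 0.13 (adjusted p = 0.00252, limma). Ascl2 was above background in 5 of 28 samples, all of them in 1% oxygen. Set against the background limit as for Fzd1, its mean was higher in no low oxygen comparison, so the size of its change is uncertain. With the block 5 of the 13 were higher and 1 lower, among the higher ones Tnfrsf19 by 0.53 and Msx1 by 0.42 (adjusted p = 1.38e-06 and 0.000204 with the block, limma). With doxycycline averaged over both oxygen levels 1 was higher with the block, Fgf8, and 2 were lower, Cdx2 by 0.35 and Myc by 0.33 (adjusted p = 9.6e-05 and 0.0184 with the block, limma). Of all probes, 2.95% were called there with the block, and Fgf8 was above background in no complete group. Cdx2 is a caudal-type gene like Cdx1 and moved in the opposite direction with doxycycline.

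**Figure D5:**
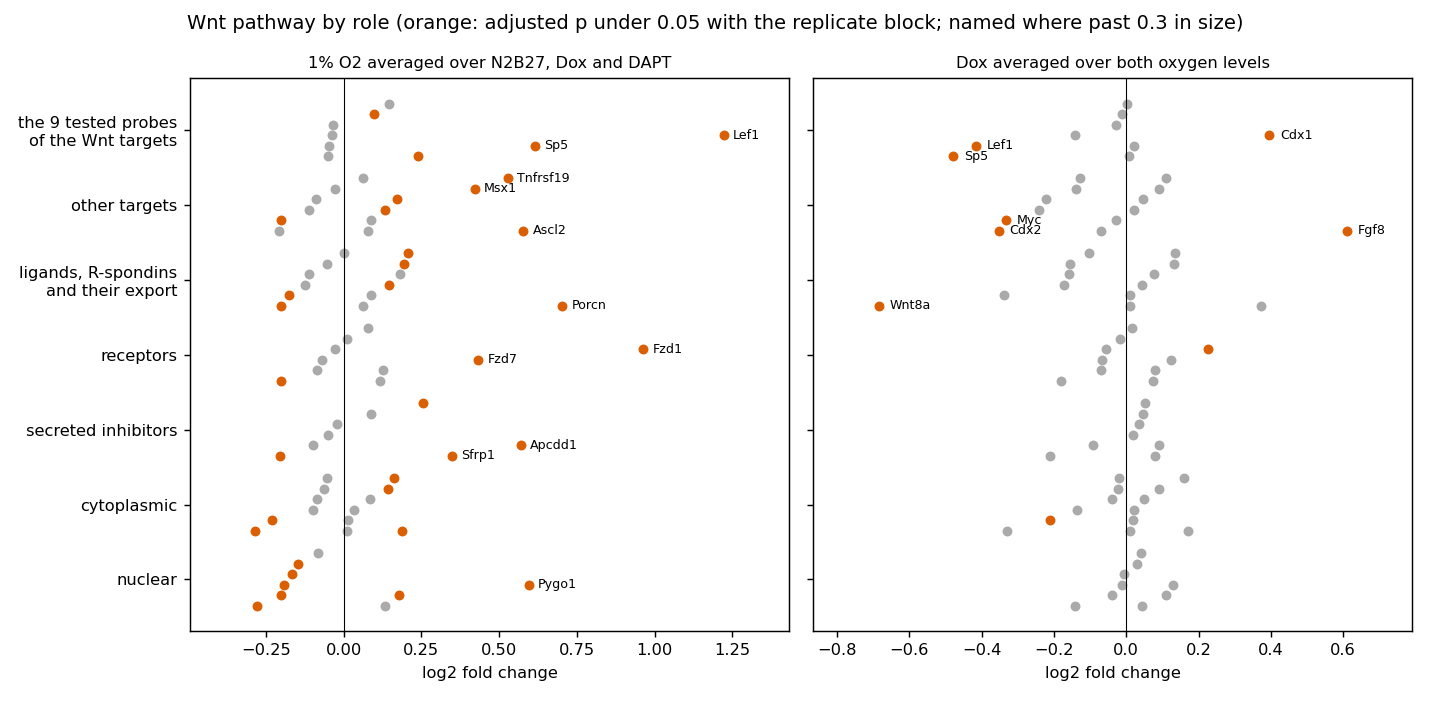
Log2 fold change of the 9 tested member probes and of 66 other Wnt pathway genes by role, for 1% oxygen averaged over N2B27, Dox and DAPT on the left and doxycycline averaged over both oxygen levels on the right, orange where the adjusted p with the replicate block is under 0.05, these being named where their size is over 0.3. Lef1 at 1.22 is the farthest point to the right for low oxygen, followed by Fzd1 at 0.96 and Porcn at 0.70.

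Wnt targets in ES cells overlap with primitive streak fates, so markers of other cell types were measured beside them. Of 7 mesoderm and streak markers with a named probe, 2 or 3 were above background in all 4 samples of a group, and Gsc, Mesp1, Mixl1 and Fgf8 were not so in any group. Their summed signal was 371 to 934 in 1% O2, 271 to 743 in Dox and 216 to 807 in N2B27. Under 1% oxygen averaged over the backgrounds, Eomes was higher by 0.89 and Evx1 by 0.68 (adjusted p = 9.6e-05 and 0.0478, limma). Of 8 endoderm markers, 4 or 5 were above background in a whole group, with a summed signal of 843 to 1948 in 1% O2 and 878 to 1380 in N2B27, and Gata6 was higher by 0.51 (adjusted p = 0.00391, limma). In that average without the block, 3 of 5 tested mesoderm and streak markers were higher and 0 lower. The same counts held for 5 tested endoderm markers, where 15.1% of all probes were called. The part of these cells in the changes of Lef1, Sp5 and Axin2 was not tested. Of 8 fibroblast markers, Col1a2, Col3a1, Dcn, Lum and Postn were above background in no complete group. Thy1 and Acta2 were above it in all 4 samples of every group, and Col1a1 in every group but 1% O2+DAPT. The summed signal of the list was 6116 to 17527 in 1% O2 and 5300 to 15947 in N2B27. Of 7 neural markers with a named probe, 3 were above background in all Dox samples and 1 in all N2B27 samples, with a summed signal of 513 to 1000 in Dox and 132 to 237 in N2B27, part of it from the Notch target Hes5. Sox1, Pax6, Neurog2 and Zic1 were above background in no complete group. The part of these markers in the change of Cdx1 with doxycycline was not tested.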

How the data were processed

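Expression was measured in 28 samples on 30 Illumina arrays. Per the file headers, the main deposited table holds intensities that were not normalized between arrays. BeadStudio is named in the submitters' processing notes, its version not given in the sources used here. Of the intensities on each array, 27.2% to 29.9% were below 0, so a background had been subtracted. Another deposited table gives intensities processed by the authors, on a linear scale with a floor of 50. On the first array 99.96% of them equalled the main table or the floor (to within 1e-06), each of 30 columns correlated best with its own array, and the column median was 50, with 53.8% to 56.0% of values at the floor. How those arrays were brought together is unknown, and the table served as an alternative.

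Signals were corrected with normexp (offset 0), put on the log2 scale and quantile-normalized across the 30 arrays in limma 3.58.1 (R 4.3.3). The second arrays of Dox 3 and 4 were averaged with the first. Of 24611 probes, 20983 had 1 symbol, 1 several and 3627 none, and 20967 symbols were updated by Entrez number. Named probes above their array's median on at least 4 of 28 samples were tested. A probe was above background where its signal passed the 98th percentile of the sizes of the array's negative signals (29.3 to 41.6 units), a limit set after seeing the data. The number of arrays limits the precision.

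A model with 7 group means (lmFit, eBayes, 21 residual degrees of freedom, 18 with the block) gave 12 two-sided comparisons. The replicate number was tried as a block. It pairs the samples by the data, as the correlation of deviations from group means between same-numbered samples was 0.711 to 0.849, against 0.518 to 0.731 for the other number of the same set and −0.784 to −0.619 across the sets, and 28 of 28 samples correlated best with their own number. Other alternatives were the offset, scaling, filter, authors' values, single arrays, 1 probe a gene, only the groups compared, each replicate set and each sample left out. The fit was tested on simulated data. Members and lists were chosen with earlier results of these data known. The text names all members, pathway genes called in the main comparisons or averages with 4 of 4 pairs in 1 direction (at most 8 each), check genes and the 5 nearest genes to Axin2; Wnt8a, Cdx2, Myc, Fgf8, Ctnnb1, Apcdd1, Tnfrsf19, Msx1, Wnt6, Eomes, Evx1 and Gata6 were named after their values were seen. Sequences are from the RefSeq table of GRCm38.p6. Promoters of Ccnd1, Lgr5 and Cdx1 were not used here.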

Additional observations from a re-analysis of the deposited data

Results flagged for a closer look

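Of 63 combinations of a tested probe and a group, 6 held a sample far from the other 3, where about 1 in 20 is flagged by chance. Of these 6, 5 are replicate 1 of Sp5 or Axin2. Sp5 read 10.50 in 1% O2 replicate 1, with the other 3 samples of that group at 8.70 to 8.82. It read 10.37 in 1% O2+DAPT replicate 1, with the others at 8.52 to 8.72, and 9.65 in 1% O2+Dox replicate 1, with the others at 8.14 to 8.37. Axin2 read 7.64 in 1% O2+DAPT replicate 1, with the others at 6.75 to 6.82, and 7.62 in DAPT replicate 1, with the others at 6.64 to 6.79. Over all 7 groups, Sp5 averaged 9.88 in replicate 1, and 8.04, 8.27 and 8.51 in replicates 2, 3 and 4. Cdx1 averaged 7.24 in replicate 1 and 6.26, 6.48 and 6.05 in the others. The cause was not tested. The remaining case is probe 4 of Ccnd1, which read 8.94 in ESC replicate 2, with the others at 9.36 to 9.41. That sample enters the difference of −0.20 between N2B27 and ESC on this probe.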

How the results depend on the processing

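Lef1 kept its direction and its call under all 13 alternatives other than omitted samples in each of the 5 low oxygen comparisons, with changes of 0.93 to 1.55 in 1% O2 against N2B27 and 1.13 to 1.77 in 1% O2 against Dox. The lowest values came with an offset of 50, which by its construction shrinks changes of dim probes. With the replicate block, the number of the 9 member probes called became 3 in 1% O2 against N2B27, 1 in Dox against N2B27, 4 in 1% O2 against Dox, 2 in 1% O2+Dox against 1% O2, 3 in 1% O2+Dox against Dox, 2 in 1% O2+DAPT against DAPT, 4 in N2B27 against ESC, 4 for 1% oxygen averaged and 3 for Dox averaged, against 1, 0, 1, 0, 1, 1, 0, 1 and 0 without it. The block changed no other member's call. Over all 12279 probes the block moved the calls to 2115 against 406 in 1% O2 against N2B27, 171 against 24 in Dox against N2B27 and 2374 against 506 in 1% O2 against Dox. In replicates 3 and 4 alone 1% oxygen averaged called 2, Lef1 and Sp5, and the share of all probes in that subset is not given here.

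Further alternatives were chosen after seeing the data. The block with an offset of 50 gave the same 9 counts as the block (3, 1, 4, 2, 3, 2, 4, 4 and 3). The block with median scaling gave 3, 0, 3, 2, 3, 4, 2, 5 and 3, and the block with the authors' processed values 4, 0, 4, 2, 3, 2, 3, 4 and 2. The share of all probes called under each of these settings is not given here. The counts therefore cannot be read as more or fewer than over all probes. Median scaling moved the median of all probes to −0.12 in 1% O2+DAPT against DAPT (−0.02 as reported), and its 2 extra calls there, probes 2 and 4 of Ccnd1, were lower by 0.23 and 0.24. Sp5 and Axin2 kept each of their low oxygen calls in all 4 fits with a block. Cdx1 lost its call for Dox averaged with the block on the authors' values, its call in Dox against N2B27 with the block under median scaling and the authors' values, likewise that in 1% O2 against Dox, and that in N2B27 against ESC on the authors' values, where Axin2 was called instead. The authors' values raised the averaged change of Axin2 from 0.24 to 0.39 and took that of Lef1 in 1% O2+Dox against 1% O2 from −0.50 to −0.76. No probe was called in both directions, though for 1% oxygen averaged probe 1 of Ccnd1, called higher with the block, lay at −0.0038 under median scaling, and probe 4, called lower there, lay just above 0 on the authors' values. Leaving out 1 sample in the fit without the block left the counts as they were. Signals near the background limit bound what can be said of Cdx1, Rnf43 and, outside 1% oxygen, Lef1.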

Other observations

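The 2 samples with repeat arrays show how far repeat arrays of 1 replicate scattered on the members. The second arrays carry the labels 3b and 4b, and whether they used the same RNA could not be checked here. On the 2 arrays of Dox replicate 3, Sp5 read 7.67 and 7.85, Lef1 read 5.80 and 5.37 and Cdx1 read 6.94 and 6.75. On the 2 arrays of Dox replicate 4, Sp5 read 7.99 and 8.30, Lef1 read 5.55 and 5.86 and Cdx1 read 6.27 and 6.52. For Lef1 the repeat arrays of Dox replicate 3 lay further apart than the difference of -0.33 between Dox and N2B27. For Sp5 both repeats lay closer together than its difference of -0.36. The low oxygen change of Lef1, 1.34, exceeded the gap of every repeat. Axin2 read 6.57 and 6.54 on the arrays of Dox 3 and 6.44 and 6.56 on those of Dox 4.

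Some further genes of the Wnt pathway lists differed between the media. In N2B27 against ESC, Wnt3a was lower by 0.51, Wnt10a, above background in 4 of 28 samples, by 0.93 and Bmp4 by 0.61, while Dkk3, a Dickkopf family member, was higher by 0.57 (adjusted p = 0.0133, 3.51e-05, 3.29e-06 and 0.00206 with the block, limma), none of them called without it. Pygo1 was higher in N2B27 by 0.49 and was called without the block (adjusted p = 0.0148, limma). Over the 66 genes of the pathway lists, 5 were higher and 7 lower with the block, where 14% of all probes were called. These genes were named after their values were seen.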
